A study of Solanum lycopersicum with 21 samples.

Results

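The genomic binding of 2 tomato MADS-domain protein complexes, FUL2-J2 and MC-J2, was compared peak by peak. Both complexes hold the same partner, J2, and differ in the AP1/FUL-like protein beside it. The members were the 9617 peaks deposited for these complexes, 4940 for FUL2-J2 and 4677 for MC-J2, out of 52995 peaks in the 6 lists of the series. An overlap of 1 bp or more made peaks of the lists shared.

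The series used DAP-seq, in which a TF made in a cell-free system is mixed with fragments of genomic DNA and recovered through its tag, and the DNA recovered with it is sequenced. FUL2 or MC was expressed together with J, J2 or TM3, with 3 libraries for each of the 6 complexes, and 3 libraries named input came from an expression reaction without plasmid. In the groups FUL2-J2 and MC-J2, the tag (3×FLAG) was on FUL2 or MC and not on J2, the proteins came from a wheat germ extract, and the DNA came from leaves of the cultivar Moneyberg and carried no chromatin. The authors merged the libraries of a complex before they called peaks, so that there is 1 list per complex and no value per library.

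MADS-domain proteins bind as dimers or tetramers to CArG-boxes, short motifs with an A/T-rich core, and the partners in a complex help to set which sites it holds. MC (MACROCALYX) belongs to the AP1 clade and acts in floral meristem identity, sepal size and the pedicel abscission zone, while FUL2 belongs to the FUL clade, known in tomato for its part in fruit ripening and in the inflorescence. J2 (JOINTLESS2) is a SEPALLATA-like protein that acts in floral meristem maturation, inflorescence branching and the abscission zone. AP1/FUL-like proteins commonly bind DNA together with SEPALLATA-like partners. Comparing complexes with a common partner asks whether FUL2 and MC hold the same sites to the same degree.

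Each peak carried a fold enrichment over its local background, a −log10 p, a −log10 q and a summit, the position with the highest pileup of fragments. Because MACS2, the peak caller, computes fold and p from the pileup and the background, both could be solved for the number of treatment reads over a summit. This gave a single whole number of reads for 4443 of the FUL2-J2 peaks and 4608 of the MC-J2 peaks. The merged treatment was 2.18 times as deep as the input behind its list for FUL2-J2 and 1.99 times for MC-J2. A median of 121 reads (interquartile range 105 to 141) covered a FUL2-J2 summit and a median of 111 (97 to 131) an MC-J2 summit. The most frequent background at a summit was equal to 10.6 and 10.4 input reads. The median fold was 4.25 for FUL2-J2 and 4.37 for MC-J2, and the middle of each list was narrow, with interquartile ranges of 3.76 to 4.82 and 3.88 to 5.03. All intervals below cover counting error over peaks or reads and no variation between libraries.

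Most binding sites were common to both complexes. Of the FUL2-J2 peaks, 3544 (71.7%, 95% Wilson interval 70.5–73.0%) overlapped an MC-J2 peak, and these were 75.8% (74.5–77.0%) of the MC-J2 peaks. Every overlap joined exactly 1 peak of each list, giving 3544 pairs. The remaining 1396 FUL2-J2 peaks (28.3%) and 1133 MC-J2 peaks (24.2%) had no partner in the other list. A peak absent from a list has no value there, only a signal that did not make a peak. The share of FUL2-J2 peaks with an MC-J2 partner ran from 68.7% on chromosome 7 to 75.3% on chromosome 10, and the Wilson intervals of these extremes overlapped. For MC-J2 peaks it ran from 71.4% on chromosome 4 to 80.2% on chromosome 6, again with overlapping intervals.

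The peaks without a partner were the weaker and narrower ones. Their median fold was 3.89 in FUL2-J2 and 4.02 in MC-J2, against 4.45 and 4.59 for shared peaks. Their median −log10 q was 12.3 and 12.8, against 16.9 and 17.8. A −log10 q under 10 was found at 329 (23.6%) of the absent and 256 (7.22%) of the shared FUL2-J2 peaks, and at 208 (18.4%) of the absent and 254 (7.17%) of the shared MC-J2 peaks. Their median width was 283 and 276 bp, against 324 bp for shared peaks in both lists, and each list had a lower limit of width. The narrowest FUL2-J2 peak was 257 bp and 147 peaks had exactly this width, whereas no other width was shared by more than 62 peaks. In MC-J2 the narrowest width was 252 bp, with 135 peaks at it and at most 54 at any other width. Within 5 bp of the narrowest width, 57.2% (95% Wilson interval 52.3–62.0%) of FUL2-J2 peaks and 57.5% (52.3–62.6%) of MC-J2 peaks were absent from the other list. Among peaks more than 100 bp wider than the narrowest, 6.39% (5.08–8.01%) and 2.95% (2.13–4.07%) were absent. Reads moved with width, with a median of 102 in the narrowest FUL2-J2 class and 148.5 in the widest, and 93 and 139 in MC-J2. The parts of width and depth in the absence of a peak were not tested apart.

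**Figure D1:**
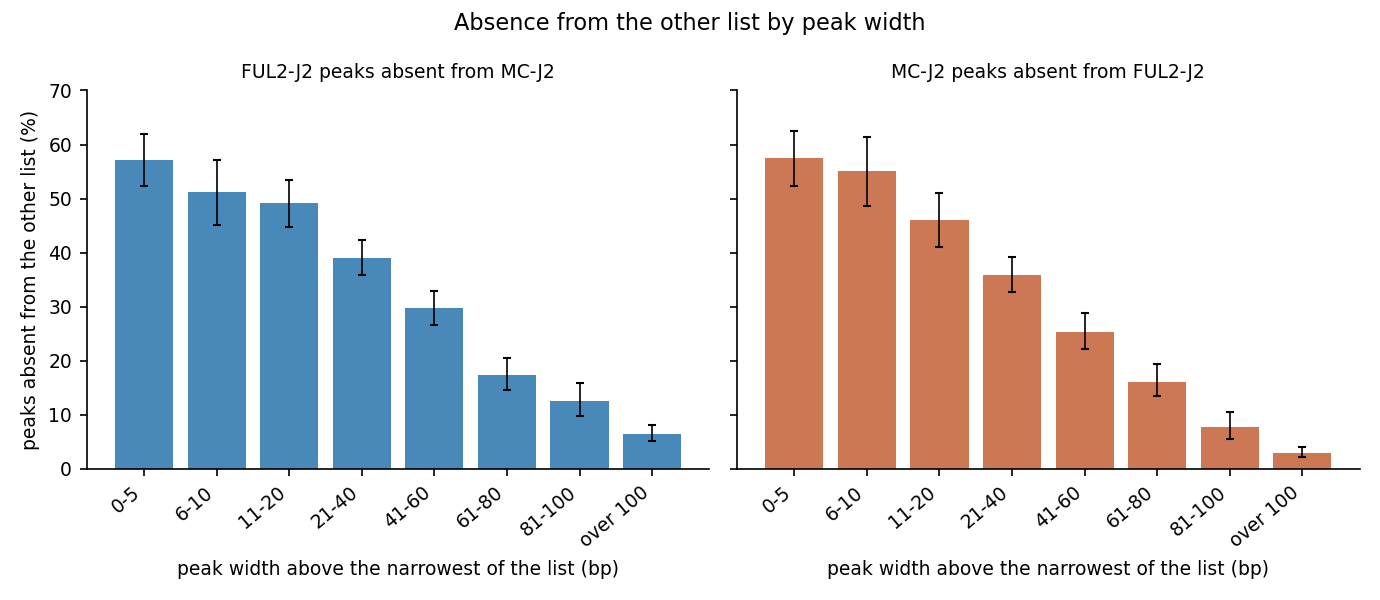
Bars give the share of FUL2-J2 peaks (left) and MC-J2 peaks (right) that overlapped no peak of the other list, in %, by how much wider the peak was than the narrowest of its list, in bp. Error bars are 95% Wilson intervals over peaks. In both lists the share falls from over 57% in the narrowest class to 6.39% and 2.95% in the widest.

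At the 3544 shared sites, the rank of a peak within its list was similar for the complexes. Each fold was turned into a percentile within its own list, from 0 for the weakest peak to 100 for the strongest. The difference, FUL2-J2 minus MC-J2, had a median of 0.85 points and an interquartile range of −9.50 to 11.7. Its absolute value had a median of 10.6 points (95% binomial interval 10.1–11.3). Pairs more than 25 points higher in FUL2-J2 numbered 380 (10.7%), and pairs more than 25 points higher in MC-J2 numbered 307 (8.66%). A difference over 50 points was found at 41 pairs higher in FUL2-J2 and at 34 higher in MC-J2. As a description over the 3544 pairs, which share the genome and possibly the input, the Spearman correlation of fold between the lists was 0.77 and that of width 0.64.

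Pairs were also divided into 4 equal classes by their mean percentile of −log10 q. From the weakest class to the strongest, 14.6%, 34.2%, 22.8% and 5.98% of pairs differed by more than 25 points. A mean near either end of the scale limits how far the percentiles of a pair can differ, so these shares are a description of the classes only. The 380 pairs higher in FUL2-J2 had a median fold of 4.72 in FUL2-J2 and 4.02 in MC-J2, and the 307 pairs higher in MC-J2 had 3.93 and 4.98. Widths moved with fold. Of the pairs higher in FUL2-J2, 329 (86.6%) were wider in FUL2-J2, and of those higher in MC-J2, 261 (85.0%) were wider in MC-J2, against 48.1% and 51.0% of the other pairs. Fold and width were called from the same pileup and background, so these shares too are a description.

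**Figure D2:**
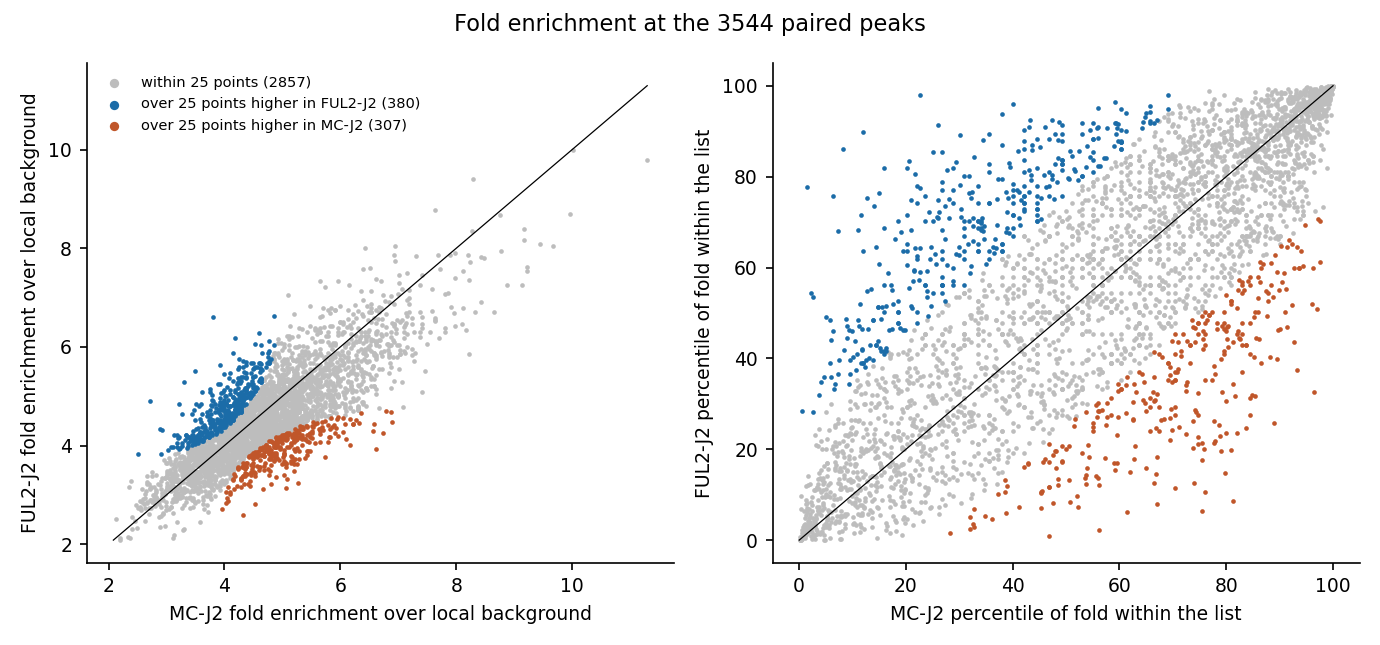
Each point is one of the 3544 shared peaks. The left panel plots the fold enrichment over the local background and the right panel the percentile of that fold within its list, FUL2-J2 against MC-J2, with the line of equal values. Blue points are the 380 pairs more than 25 percentile points higher in FUL2-J2 and orange points the 307 higher in MC-J2, and both groups lie along the flanks of the cloud.

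Reads over the summits give the size of these differences next to counting error. At 3120 pairs (88.0%) the reads were solved in both lists. The ratio of pileups, FUL2-J2 over MC-J2, each at the scale of the input behind its list, had a median of 0.987 and ran from 0.665 to 1.64, with 5% of pairs below 0.803 and 5% above 1.21. The SD of its log2 was 0.18, and the value given by the number of reads alone was also 0.18. A ratio exists only where both lists had a peak. The 1396 FUL2-J2 and 1133 MC-J2 peaks without a partner, where larger ratios may lie, are left out of this SD and of the shares below. Whether counting alone accounts for the differences between the complexes was therefore not tested. An exact 95% counting interval, which leaves out at most 5% of pairs where nothing but counting differs, left out the median ratio at 128 pairs (4.10%, 95% Wilson interval 3.46–4.86%). In 64 of these (2.05%) FUL2-J2 was higher and in 64 (2.05%) MC-J2. Of the 314 solved pairs that were more than 25 points higher in FUL2-J2, 50 (15.9%) had an interval that left out the median ratio, as had 42 of 277 (15.2%) of those higher in MC-J2 and 36 of the 2529 others (1.42%). These groups were formed with the same reads, so the shares are a description. Thus 264 and 235 of the pairs with large percentile differences could not be told apart from the median ratio at this depth. The PCR amplification before sequencing means that reads are not all independent molecules, which the intervals do not cover.

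**Figure D3:**
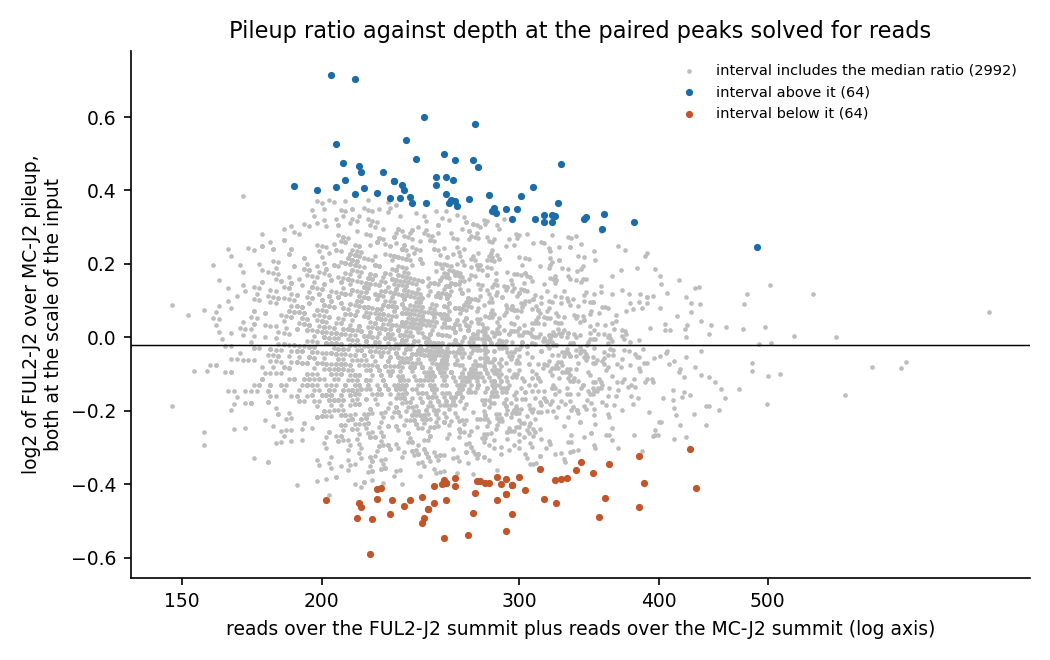
Each point is one of the 3120 pairs solved for reads. The x axis is the number of reads over both summits on a log axis, and the y axis is the log2 ratio of the FUL2-J2 pileup over the MC-J2 pileup, both at the scale of the input. Coloured points are the 64 pairs on each side whose exact 95% counting interval left out the median ratio, drawn as a line, and the cloud narrows as reads increase.

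The 6 pairs with the largest percentile difference towards FUL2-J2 are described first, with the reads that set them. They were chosen for that difference, so their values are not tested. On chromosome 4 of the Moneyberg genome, a FUL2-J2 peak from 26585975 to 26586377 had a fold of 5.28 (percentile 86.2), and the MC-J2 peak within it a fold of 3.31 (percentile 8.28). The summits lay 1 bp apart and were covered by 131 FUL2-J2 and 73 MC-J2 reads, a pileup ratio of 1.64 (95% counting interval 1.22–2.22) and the highest among the solved pairs. No other list had a peak at this site. On chromosome 1 from 64573412 to 64573769, the fold was 5.52 (percentile 89.7) in FUL2-J2 and 3.48 (percentile 12) in MC-J2, with 137 and 77 reads and a ratio of 1.63 (1.22–2.18). The summit lay 62.7 kb upstream of the start of Solyc01g058320, the gene assigned to this peak in the FUL2-J list. Its folds with J were 5.15 (percentile 81.4) in FUL2-J and 3.72 (percentile 39.8) in MC-J. With TM3 the folds were 6.55 in FUL2-TM3 and 8.93 in MC-TM3. The median fold of the whole list was 3.31 in FUL2-TM3 and 4.19 in MC-TM3. Within these lists the site had percentiles of 99.5 and 99.8, so its rank was alike with TM3.

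A site on chromosome 2 from 21997669 to 21998072 lay inside Solyc02g021270, 2.69 kb downstream of its annotated start. Here FUL2-J2 had a fold of 6.60 (percentile 97.9) and MC-J2 a fold of 3.805 (percentile 22.7), with 170 and 104 reads and a ratio of 1.495 (1.16–1.93). The J complexes had folds of 4.96 (FUL2-J, percentile 77.2) and 3.24 (MC-J, percentile 19.5). The TM3 complexes had folds of 3.24 (FUL2-TM3, percentile 47.0) and 5.10 (MC-TM3, percentile 79.6). FUL2 was thus the higher of the proteins with J2 and J and the lower with TM3 at this site, and these differences were not tested. On chromosome 4 from 36741578 to 36741904 the folds were 5.08 and 3.62, with 126 and 80 reads and a ratio of 1.44 (1.08–1.93).

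The other two pairs of this group follow. On chromosome 5 from 37053667 to 37053989 the folds were 4.91 (percentile 77.7) in FUL2-J2 and 2.71 (percentile 1.45) in MC-J2, but the MC-J2 reads could not be solved. On chromosome 1 from 18006437 to 18006751 the folds were 4.84 and 3.22 with 120 and 94 reads, and the ratio of 1.17 had an interval of 0.884–1.55. The background there was equal to 10.6 input reads in FUL2-J2 and 14 in MC-J2.

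The 6 pairs with the largest difference towards MC-J2 were chosen in the same way, and their values too are a description. The first, on chromosome 8 from 57953731 to 57954066, had a fold of 3.24 (percentile 8.66) in FUL2-J2 and 5.26 (percentile 81.3) in MC-J2. It was covered by 139 and 143 reads, a ratio of 0.889 (0.699–1.13), over backgrounds of 19 and 12.9 input reads. Peaks on chromosome 1 from 55065000 to 55065256, on chromosome 12 from 599893 to 600699 and on chromosome 5 from 17975766 to 17976140 likewise had a higher background in FUL2-J2. At the chromosome 5 site 194 FUL2-J2 and 177 MC-J2 reads gave a ratio of 1.003 (0.814–1.24), while the backgrounds were 22 and 12.6 and the folds 3.92 and 6.61. At these 4 sites the backgrounds differed by 5.42 to 9.40 input reads and the pileup ratios lay between 0.889 and 1.003. Only 7 of the 3120 solved pairs had backgrounds more than 5 reads apart, and 2826 (90.6%) had them within 1 read. In the order named, the summits of these 4 pairs lay 64, 33, 359 and 44 bp apart, so backgrounds and pileups were read at different bases. At the chromosome 5 site the background was 22 in FUL2-J, 19 in FUL2-TM3, 23 in MC-J and 22 in MC-TM3, nearer to FUL2-J2. At the chromosome 12 site it was 10.8 in FUL2-TM3 and 11.1 in MC-TM3, nearer to MC-J2. Why the background differed at these sites was not tested.

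The other two pairs had backgrounds closer to each other. On chromosome 10 from 59249079 to 59249356 the fold was 3.77 (percentile 25.8) in FUL2-J2 and 5.73 (percentile 89.0) in MC-J2, over backgrounds of 10.6 and 10.4, with 93 and 128 reads and a ratio of 0.665 (0.503–0.875), the lowest among the solved pairs. At this site the FUL2-J list had a fold of 6.23 and the MC-J list 4.31, so FUL2 was the higher with J. With TM3 only MC had a peak there, with a fold of 6.75, so the proteins did not share one order across partners. On chromosome 8 from 32772900 to 32773196 the folds were 3.14 (percentile 6.50) and 5.06 (percentile 75.5), with 107 and 139 reads and a ratio of 0.704 (0.542–0.913). With J, both proteins were strong there, with folds of 6.13 (FUL2-J) and 5.35 (MC-J).

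The complexes placed their summits at nearly the same base. The median distance between the summits of a pair was 14 bp (95% binomial interval 13–15), 41.1% of pairs lay within 10 bp and 91.1% within 50 bp. The median signed shift was 0 bp, with the FUL2-J2 summit at the higher coordinate in 1696 pairs and the MC-J2 summit in 1762. Summits more than 100 bp apart were found in 68 pairs (1.92%), 50 of them in the weakest class of pairs (5.64% of it) and 1 in the strongest (0.113%). The median distance fell from 19 bp in the weakest class to 11 bp in the strongest.

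The 3 pairs with the farthest summits each held at least 1 wide peak. The largest distance, 396 bp, was on chromosome 11, between a FUL2-J2 peak from 28429277 to 28429611 and an MC-J2 peak from 28428933 to 28429493, with folds of 4.09 and 3.75 and 101 and 83 reads. At this site the FUL2-J list held a single peak 901 bp wide, the FUL2-TM3 list one of 655 bp and the MC-TM3 list one of 641 bp. The MC-J list held a narrower one of 313 bp. The next was the chromosome 12 site from 599893 to 600699 named above, with summits 359 bp apart in peaks of 807 and 750 bp. On chromosome 7, a FUL2-J2 peak from 21492009 to 21492500 and an MC-J2 peak from 21492280 to 21492531 had summits 324 bp apart, folds of 3.49 and 3.44 and 86 and 76 reads. In none of the 3 did the counting interval of the reads leave out the median ratio. The wider peak of a pair had a median width of 391.5 bp where summits were over 100 bp apart and 340.0 bp in the other pairs.

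Widths also balanced between the complexes. Shared peaks had a median width of 324 bp in both lists, and the median of the paired difference was 0 bp (95% binomial interval −2 to 2) with an interquartile range of −25 to 26. FUL2-J2 was the wider in 1748 pairs and MC-J2 in 1767. A difference over 100 bp was found at 64 pairs wider in FUL2-J2 and at 37 wider in MC-J2.

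**Figure D4:**
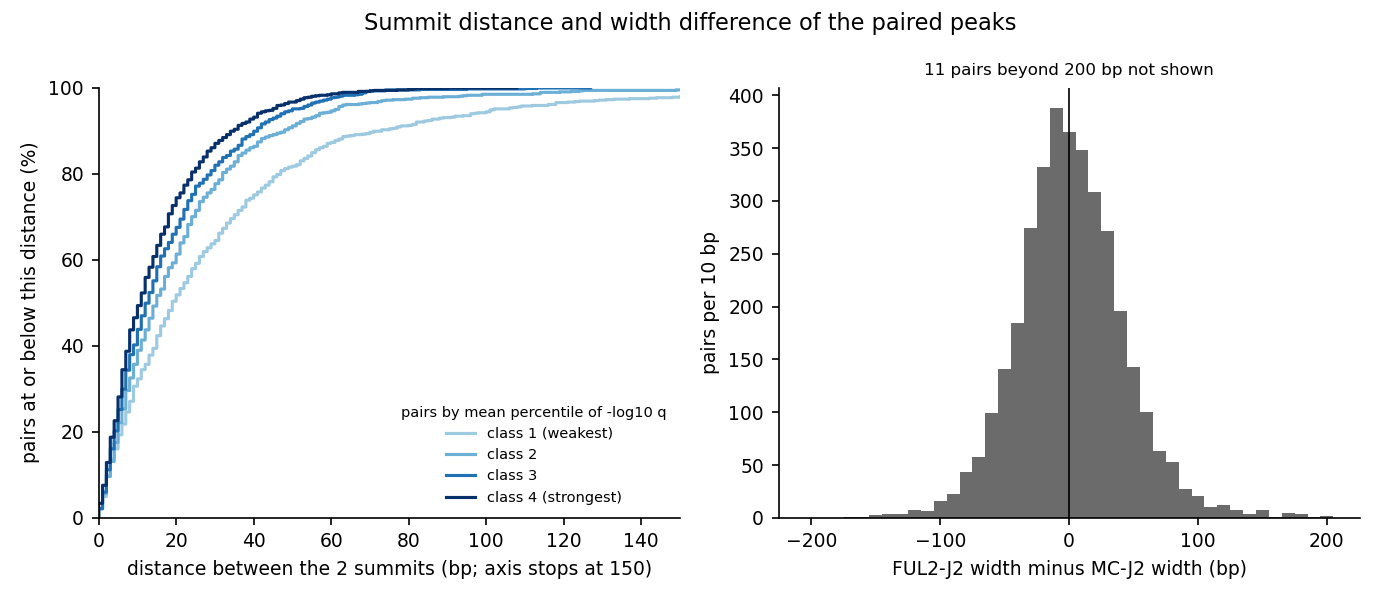
The left panel gives the cumulative share of pairs, in %, against the distance between their summits in bp, for 4 equal classes of the pairs by mean percentile of −log10 q, with medians from 19 bp in the weakest to 11 bp in the strongest. The right panel is a histogram of the FUL2-J2 width minus the MC-J2 width in bp, centred on 0 bp, with 11 pairs beyond 200 bp not drawn.

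The 6 pairs with the most unequal widths differed in fold by −27.5 to 20.8 percentile points. The FUL2-J2 peak on chromosome 6 from 28555605 to 28556348 was 744 bp wide and the MC-J2 peak 347 bp, with summits 4 bp apart and folds of 4.26 and 4.56. On chromosome 2 from 43889227 to 43889819 the widths were 593 and 316 bp with folds of 4.60 and 4.59, and on chromosome 9 from 81393921 to 81394456 they were 536 and 272 bp with folds of 3.86 and 4.56. In the other direction, an MC-J2 peak on chromosome 6 from 38933277 to 38934192 was 916 bp wide over a FUL2-J2 peak of 422 bp, with summits 6 bp apart. Both were among the strongest of their lists, with folds of 7.28 (percentile 98.7) and 6.31 (percentile 96.6) and 163 and 157 reads. On chromosome 9 an MC-J2 peak from 11281841 to 11282458 was 618 bp wide against 326 bp in FUL2-J2, with 107 and 118 reads. The third was the chromosome 11 site with the farthest summits, 561 bp in MC-J2 and 335 bp in FUL2-J2. In the 5 of these 6 pairs that were solved for reads, the counting interval included the median ratio.

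Some strong peaks of one J2 complex were absent from the list of the other J2 complex. A peak was called strong in the top 25% of its list by −log10 q, which held 1235 FUL2-J2 and 1194 MC-J2 peaks. The last −log10 q inside this limit was 19.85 in FUL2-J2 and 21.558 in MC-J2, and the first outside was 19.81 and 21.554. Strong peaks absent from the other list numbered 49 in FUL2-J2 (3.97%, 95% Wilson interval 3.01–5.21%) and 26 in MC-J2 (2.18%, 1.49–3.17%), against 28.3% and 24.2% of all peaks. With strength taken by fold, 67 of 1235 strong FUL2-J2 peaks and 48 of 1204 strong MC-J2 peaks were absent. In the top 10% by −log10 q only 2 of 494 FUL2-J2 peaks and 2 of 474 MC-J2 peaks were absent. The strong absent peaks were spread over 12 chromosomes for FUL2-J2, with at most 7 on any of them, and over 11 for MC-J2, with at most 6.

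These absent peaks stood near the weaker end of the strong class and were narrow for their strength. Their median −log10 q was 21.8 in FUL2-J2 and 23.3 in MC-J2, against 24.9 and 27.3 for strong shared peaks. Their median width was 316 and 308 bp, against 364 and 369 bp. Among strong FUL2-J2 peaks up to 60 bp wider than the narrowest of the list, 26 of 171 (15.2%, 10.6–21.3%) were absent, and among wider ones 23 of 1064 (2.16%, 1.44–3.22%). For MC-J2 these were 14 of 92 (15.2%, 9.29–23.9%) and 12 of 1102 (1.09%, 0.624–1.89%). A median of 138.5 reads covered the strong absent FUL2-J2 summits and 128.5 the MC-J2 ones, against 153.5 and 145.0 for strong shared peaks. None lay within 1 kb of a peak of the other list, and the median gap to the nearest was 59.9 kb for FUL2-J2 and 33.4 kb for MC-J2. Of all absent peaks, only 19 of 1396 in FUL2-J2 and 9 of 1133 in MC-J2 lay within 1 kb. The median gap of all absent peaks was 50.6 and 52.9 kb, so these gaps are not particular to the strong ones.

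Some of these sites carried a peak of the other AP1/FUL-like protein with J or TM3 as its partner. Over all peaks, 83.2% of FUL2-J2 peaks overlapped an MC-J or MC-TM3 peak and 70.8% of MC-J2 peaks a FUL2-J or FUL2-TM3 peak, lists that are longer than those with J2. Among all absent peaks these shares were 73.0% and 43.9%. Taken list by list, MC-J held 53.0% of all FUL2-J2 peaks and 38.5% of the absent ones, and MC-TM3 held 77.0% and 61.8%. For MC-J2 the shares in FUL2-J were 66.5% of all peaks and 39.9% of the absent ones, and in FUL2-TM3 39.5% and 16.9%. Of the 49 strong FUL2-J2 peaks absent from MC-J2, 28 (57.1%, 43.3–69.98%) overlapped an MC-J peak, 30 (61.2%, 47.2–73.6%) an MC-TM3 peak and 39 (79.6%, 66.4–88.5%) at least 1 of these lists. Of the 26 strong MC-J2 peaks absent from FUL2-J2, 12 (46.2%, 28.8–64.5%) overlapped a FUL2-J peak, 3 (11.5%, 4.003–29.0%) a FUL2-TM3 peak and 13 (50%, 32.1–67.9%) at least 1 of them. Of strong shared peaks, 96.7% (95.5–97.6%) in FUL2-J2 and 92.1% (90.4–93.5%) in MC-J2 overlapped at least 1 list of the other protein with J or TM3. This left 10 strong FUL2-J2 peaks found in no MC list and 13 strong MC-J2 peaks found in no FUL2 list. Of these, 6 and 7 had a peak of their own protein with J or TM3 as well, and 4 and 6 were found in no other list of the series.

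The strongest FUL2-J2 peak without an MC-J2 peak lay on chromosome 1 from 59782489 to 59782809, 64.5 kb upstream of the start of Solyc01g057510, with a fold of 6.11, a −log10 q of 29.8 and 158 reads. FUL2-J had a fold of 6.67 there, MC-J of 3.86 and MC-TM3 of 3.36, and FUL2-TM3 had no peak. The second, on chromosome 2 from 14743413 to 14743748, had a fold of 5.77 and 163 reads and was found with FUL2-J (fold 4.16) but in no MC list. It lay 3.89 kb downstream of the start of Solyc02g160440, beyond the end of that gene. The third, on chromosome 9 from 71688410 to 71688688, was of another kind, with 289 reads over a background of 40 and a fold of only 3.26 (percentile 9.25). It reached a −log10 q of 26.1 through its depth and had peaks of like fold in FUL2-J (3.06), FUL2-TM3 (3.38) and MC-TM3 (3.36). The remaining named peaks of this group, on chromosome 6 from 31374310 to 31374647 and on chromosome 1 from 9032473 to 9032855, had folds of 5.67 and 5.09 and were held by MC-J with folds of 4.94 and 4.34.

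The strongest MC-J2 peak without a FUL2-J2 peak lay on chromosome 1 from 46862476 to 46862791, with a fold of 6.66, a −log10 q of 33.1 and 149 reads over a background of 10.4. No other list of the series had a peak there, and the nearest FUL2-J2 peak was 139 kb away. The other named peaks were seen with other partners. On chromosome 1 from 35847737 to 35848081, 30.4 kb upstream of the start of Solyc01g161690, MC-J2 had a fold of 5.45 and 158 reads, FUL2-J had 5.24, MC-J 4.14 and MC-TM3 4.98. A peak on chromosome 1 from 53395771 to 53396098, 28.7 kb upstream of the start of Solyc01g160430, had a fold of 5.41 in MC-J2 and was present in all of the other 4 lists, with folds from 3.16 in FUL2-TM3 to 4.64 in MC-TM3. It was also the nearest of the named peaks to a FUL2-J2 peak, at 2.36 kb. Peaks on chromosome 7 from 8114807 to 8115124 and on chromosome 12 from 28424355 to 28424704 had folds of 4.79 and 5.70 in MC-J2 and of 5.34 and 5.61 in FUL2-J.

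The same measures were taken for FUL2 against MC with the other partners and for each J2 complex against its own protein with J or TM3. The comparisons share lists and possibly input libraries, and with 1 list per complex their differences could not be tested. FUL2-J2 and MC-J2 had the lowest shares of the 7 list pairs in each measure given here. For FUL2-J and MC-J, 28.2% (95% Wilson interval 27.1–29.4%) of pairs differed by more than 25 fold percentile points, for FUL2-TM3 and MC-TM3 33.5% (32.2–34.9%), and for FUL2-J2 and MC-J2 19.4% (18.1–20.7%). The counting interval of the reads left out the median ratio at 13.5% (12.6–14.4%) of the J pairs and 17.9% (16.8–19.1%) of the TM3 pairs, where it was 4.10% with J2. The SD of the log2 ratio was 0.26 with J and 0.31 with TM3, while reads alone give 0.20 and 0.22. The lower depth of those complexes is therefore counted in these intervals. Here too, only sites with a peak in both lists have a ratio.

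Strong peaks and summits followed the same order. With J, 313 of 2614 strong FUL2 peaks (11.97%) and 511 of 2710 strong MC peaks (18.9%) were absent from the other protein's list, and with TM3 747 of 2666 (28.0%) and 1000 of 2868 (34.9%). Summits lay more than 100 bp apart in 5.26% of J pairs and 17.1% of TM3 pairs. The TM3 lists held wider peaks, with an upper quartile of 553 bp in FUL2-TM3 and 394 bp in MC-TM3. In FUL2-J2 and MC-J2 it was 350 and 353 bp, and the part of width in the summit distances was not tested. A change of partner with the protein kept gave larger shares than the change of protein with J2 kept. The counting interval left out the median ratio at 19.4% (18.01–20.9%) of the pairs of FUL2-J2 with FUL2-J, 21.4% (19.6–23.2%) of MC-J2 with MC-J, 17.1% (15.4–18.8%) of FUL2-J2 with FUL2-TM3 and 15.5% (14.4–16.8%) of MC-J2 with MC-TM3. The change of protein with TM3 kept gave 17.9%, which was not below the shares of FUL2-J2 with FUL2-TM3 and of MC-J2 with MC-TM3. Strong FUL2-J2 peaks were absent from FUL2-J in 9.23% of cases and from FUL2-TM3 in 36.4%, and strong MC-J2 peaks were absent from MC-J in 23.5% and from MC-TM3 in 6.70%. These lists also differ in length, which bears on how often a peak can be overlapped.

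**Figure D5:**
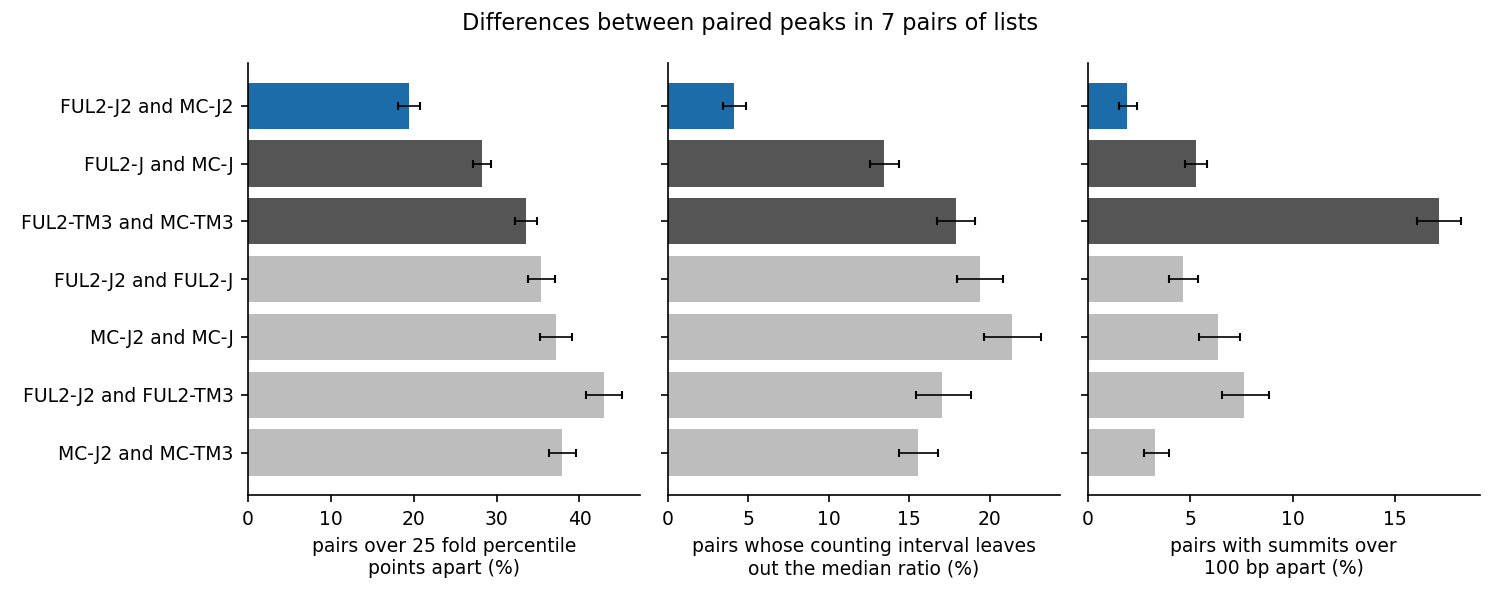
Bars give, for 7 pairs of peak lists, the share of paired peaks in % that differed by more than 25 fold percentile points (left), whose exact 95% counting interval of reads left out the median ratio (middle) and whose summits lay over 100 bp apart (right). Error bars are 95% Wilson intervals over pairs. FUL2-J2 and MC-J2 (blue) have the lowest value in each panel, at 19.4%, 4.10% and 1.92%.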

How the data were processed

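DAP-seq libraries of FUL2-J2 and MC-J2 (3 each) were analysed from the deposited peak lists, with the other 4 lists of the series beside them. The authors used Trim Galore for trimming, HISAT2 for mapping to the Moneyberg genome and, after merging libraries, MACS2 for narrow peaks at a threshold of 0.0001, which bounds q in these lists; ChIPseeker served for gene annotation, and tool versions are not given in the sources used here. Per the deposited columns, values are a fold enrichment (a ratio of pileup to local background, with a pseudocount of 1), a −log10 p and a −log10 q at each summit, and the summit offset. Which input libraries stood behind each list could not be settled.

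Lists were compared in Python 3.11.15 (scipy 1.17.1, pandas 2.3.3, numpy 2.4.6). Percentiles used all peaks of a list. Reads were solved from fold and p, for backgrounds of at least 5 and pileups within 0.1 of a whole read, and the step was tested on simulated data. Pileup ratios carry exact 95% counting intervals, and shares carry Wilson intervals. No p-value is given, since the lists hold no replicate values. The named sites were the 6 pairs per direction with the largest percentile difference, the 5 strong absent peaks per list with the highest −log10 q, the 3 farthest summits and the 3 largest width differences per direction. The members and lists were chosen with earlier results of these data known. Genes were named only where a table in the coordinates of the files gave them, which covered part of the genome. Sequences and CArG-boxes were not analysed here.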

Additional observations from a re-analysis of the deposited data

How the results depend on the processing

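Of 61 alternative values of the main results, 45 stayed within the interval of the main value (for counts, within 1.5 times it), none reversed, and the other 16 are as follows. With a −log10 q of at least 10, the median absolute percentile difference was 11.4 points, the share of pairs higher in MC-J2 10.9% and the share of summits over 100 bp apart 0.986%. Taking peaks as shared when summits lay at most 100 bp apart gave 70.4% of FUL2-J2 and 74.3% of MC-J2 peaks. Ranking by −log10 q gave a median difference of 11.7 points and 11.9% of pairs higher in FUL2-J2, and ranking among the shared peaks alone gave 9.68% of pairs higher in FUL2-J2 and 9.73% higher in MC-J2, so that the excess towards FUL2-J2 was lost. With strength taken by fold, 48 strong MC-J2 peaks were absent in place of 26, and with the top 10% as strong 2 of each. In an alternative added after seeing the data, peaks at least 50 bp wider than the narrowest were overlapped by the whole other list at 86.9% (FUL2-J2) and 91.1% (MC-J2), and by its equally wide peaks alone at 69.7% and 70.6%. Counting intervals centred at a ratio of 1, or kept to pairs at the common background, left out 4.04% and 3.90% of pairs, also added after seeing the data. Of the 12 pairs named by fold, 11 also differed by over 25 points in −log10 q, and the chromosome 5 pair towards MC-J2 differed by −13.8 points. No paired analysis was possible because the lists hold no values per library, and for the same reason no library could be left out. A median of 121 and 111 reads per summit makes the counting interval of a typical pair about 1.30 times wide on each side of its ratio, which limits what can be seen at one site.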

Other observations

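The sites with the highest mean fold percentile over FUL2-J2 and MC-J2 were chosen after their values were seen. A mean near the top of the scale leaves the percentiles little room to differ, so their likeness in rank is set by the choice. On chromosome 8 from 15955818 to 15956242 the fold was 9.80 in FUL2-J2 and 11.3 in MC-J2, with 245 and 254 reads and a pileup ratio of 0.882 (95% counting interval 0.737–1.06). On chromosome 12 from 33836689 to 33837114 the folds were 9.99 and 10.01 and the ratio 1.02 (0.846–1.22). The third, on chromosome 2 from 21994291 to 21994762, lay inside Solyc02g021270, the gene that also held one of the pairs with a large percentile difference towards FUL2-J2. Its folds were 8.70 and 9.97, with 225 and 224 reads and a ratio of 0.919 (0.760–1.11), and it lay 6.04 kb from the annotated start of the gene, the other site 2.69 kb from it. Within this gene one site had like reads with both proteins and another had 170 FUL2-J2 and 104 MC-J2 reads. The first was chosen for high values in both lists and the second for a large difference, so this contrast is a description only. All 6 lists had a peak at both sites.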
